A study of Mus musculus with 6 samples.

Results

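The genes described here in mouse testis mark endothelial cells or act on blood vessels, namely Pecam1, Cdh5, Vwf, Kdr, Flt1, Tek, Tie1, Cldn5, Esam and Vegfa. These 10 genes were taken by symbol from the 54532 genes of the deposited expression table. Testis RNA came from male C57BL/6 mice, with 3 libraries of the alcohol-FMT group (mice 18, 24 and 31) and 3 of the control-FMT group (mice 16, 19 and 21). FMT stands for fecal microbiota transplantation, and both groups received feces by gavage for 10 weeks while drinking water themselves. The feces came from donors drinking 10% ethanol for the alcohol-FMT group and from donors without ethanol for the control-FMT group. The donors drank for 10 weeks in the study's methods and for 8 weeks in the series record. Recipients entered at 3 weeks of age, shared cages for 2 weeks before they were divided, and carried no mutation or transgene that the labels name. No untransplanted mouse is among these libraries, so both groups are recipients. The study also imaged testicular blood flow in these groups, which is the question that vessel genes bear on.

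Endothelial cells line blood vessels and form a minor share of the testis, which consists mostly of germ cells inside avascular seminiferous tubules. VEGF-A, encoded by Vegfa, is the chief growth factor of vessels and is secreted mainly by cells outside the endothelium, in testis by Sertoli and Leydig cells among others. It acts through the receptor tyrosine kinases VEGFR2 (Kdr), which carries most of the growth signal, and VEGFR1 (Flt1), which binds the ligand tightly and also exists as a soluble decoy. Tek (Tie2) is the receptor of the angiopoietins, and Tie1 is its partner on the same cells. Endothelial cells hold together by VE-cadherin (Cdh5), claudin-5 (Cldn5), ESAM and PECAM1, and von Willebrand factor (Vwf) is stored in them for release to platelets.

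Levels were given as FPKM, fragments scaled to gene length and to the size of the library, and fragments per gene were read back from these values. The libraries held 16504096 to 18633124 fragments in genes, mitochondrial genes took 0.591 to 1.05% of them, and 28444 to 29480 genes had a fragment. The spermatid genes Prm1 and Prm2 and the other 5 of their list summed to 15615 to 23063 FPKM in alcohol-FMT and 15330 to 17854 FPKM in control-FMT testes, the level of a tissue rich in late germ cells. Alcohol-FMT mouse 31 had the 23063 FPKM, and alcohol-FMT mice 18 and 24 had 17719 and 15615 FPKM. Of 25 other endothelial genes, all 25 had a fragment, and their summed level was 16.0 to 17.6 FPKM in alcohol-FMT and 16.3 to 17.8 FPKM in control-FMT testes. The 10 vessel genes together had 1046, 1182 and 1038 fragments in alcohol-FMT mice 18, 24 and 31, against 1274, 1132 and 1019 in control-FMT mice 16, 19 and 21. Each of the 10 had at least 10 fragments in 3 libraries, so all were measured, but 7 of them lay under a mean of 1 FPKM.

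The start regions of Vegfa and of its receptors Kdr and Flt1 are shown because this ligand and these receptors are compared below. Each is a RefSeq window of the build GRCm38.p6, 250 bases before to 50 bases after a transcription start, on the minus strand and written 5′ to 3′. Capitals mark the ETS core GGAA, found on either strand (TTCC on the strand shown), the short form bound by ETS factors that are active in endothelium. The windows lie at chr17:46032328-46032627 for Vegfa, chr5:75978406-75978705 for Kdr and chr5:147725962-147726261 for Flt1.
Vegfa: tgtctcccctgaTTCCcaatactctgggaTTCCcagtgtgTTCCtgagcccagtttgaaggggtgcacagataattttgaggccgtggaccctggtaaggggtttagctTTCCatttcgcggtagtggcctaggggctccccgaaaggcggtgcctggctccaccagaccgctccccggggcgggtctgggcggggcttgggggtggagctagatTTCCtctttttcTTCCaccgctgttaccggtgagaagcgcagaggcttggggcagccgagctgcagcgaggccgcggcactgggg
Kdr: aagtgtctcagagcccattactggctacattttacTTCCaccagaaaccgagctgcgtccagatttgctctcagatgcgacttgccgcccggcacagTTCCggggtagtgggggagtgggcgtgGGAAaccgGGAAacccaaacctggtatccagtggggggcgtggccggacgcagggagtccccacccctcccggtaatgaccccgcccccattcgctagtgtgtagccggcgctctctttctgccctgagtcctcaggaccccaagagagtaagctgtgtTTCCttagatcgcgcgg
Flt1: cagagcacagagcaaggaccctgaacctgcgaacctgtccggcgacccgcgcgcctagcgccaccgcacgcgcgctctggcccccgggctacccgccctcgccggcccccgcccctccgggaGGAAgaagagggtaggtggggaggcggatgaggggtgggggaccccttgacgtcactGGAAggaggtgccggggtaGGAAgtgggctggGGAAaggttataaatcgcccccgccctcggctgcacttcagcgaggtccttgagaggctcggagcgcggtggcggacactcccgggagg
The ETS core stood 6 times in the Vegfa window, 5 times in that of Kdr and 4 times in that of Flt1, and 96% of all 32851 promoter windows of this length held it at least once, with a median of 3. Windows were found for 6 of the 10 genes, with 7 windows in all since Vegfa had a further start. Among them Tie1 had 9 ETS cores and Cldn5 had 0. The hypoxia response core ACGTG was absent from the Vegfa window shown, stood once in the window of its other start at chr17:46025114-46025413, and was held by 19.6% of all windows. A TATA box, TATAAA, stood in the Flt1 window and in no other of the 7, against 13.6% of all windows. The GC box GGGCGG stood 2 times in the Vegfa window shown, 2 times in that of Kdr and 3 times in that of Flt1, and 35.7% of all windows held it. The remaining forms searched on both strands were CAGGAAG, which contains the ETS core and stood in none of the 7 windows, AGATAA and CCACCC. These are matches of letters and not shown sites of binding.

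The level of Vegfa was lower in alcohol-FMT than in control-FMT testes by an unadjusted test, and none of the other 9 genes passed it in either direction. Vegfa had 0.415, 0.514 and 0.381 FPKM in alcohol-FMT mice 18, 24 and 31, against 0.722, 0.612 and 0.647 FPKM in control-FMT mice 16, 19 and 21. Every alcohol-FMT mouse was below every control-FMT mouse. The means were 0.437 ± 0.0688 and 0.660 ± 0.0559 FPKM (SD, n = 3 each), so that the alcohol-FMT mean was 66.1% of the control-FMT mean. Behind these values stood 30, 41 and 30 fragments in alcohol-FMT and 56, 47 and 47 in control-FMT testes. The spread between mice, a coefficient of variation of 15.8% in alcohol-FMT and 8.47% in control-FMT testes, was no larger than the 17.2% and 14.1% that counting alone gives at these depths. By limma on log2(FPKM + 1) over all 35799 genes with a fragment, the log2 fold change was -0.21 (standard error 0.076, 95% interval -0.39 to -0.024, adjusted p = 0.853). This scale understates the change of a gene under 1 FPKM. Limma-voom on the fragments gave a fold of 0.662 (95% interval 0.460 to 0.952, adjusted p = 0.763). The exact two-sided permutation test of the FPKM gave p = 0.1, the smallest that 3 against 3 libraries allow. Leaving out alcohol-FMT mouse 18, alcohol-FMT mouse 31 or control-FMT mouse 16 took the unadjusted limma p of Vegfa over the threshold of 0.05, and the other 3 such fits kept it below (lowest adjusted p = 0.489 by limma over the 6 fits). The call was also lost with a pseudocount of 0.1 in place of 1, where limma gave a log2 fold change of -0.51 (adjusted p = 0.843).

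Of the 10 genes, 1 was lower and 0 were higher, a single call to be read against all genes. At an unadjusted limma p up to 0.05, 3.09% of the 35799 genes with a fragment were higher in alcohol-FMT testes and 2.54% were lower, and limma-voom gave 3.11% higher and 3.17% lower. No gene passed at an adjusted p of 0.05 (0% by limma, 0% by limma-voom). Groups that did not overlap, with alcohol-FMT lower, were seen for 2 of the 10 genes and for 5.34% of all genes, and with alcohol-FMT higher for 0 of the 10 and 4.83% of all genes. The median log2 fold change of the 10 genes was -0.067, with 7 of 10 below 0. Over all 35799 genes it was -0.0028 on the same log2(FPKM + 1) scale, with 52.5% below 0.

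**Figure D1:**
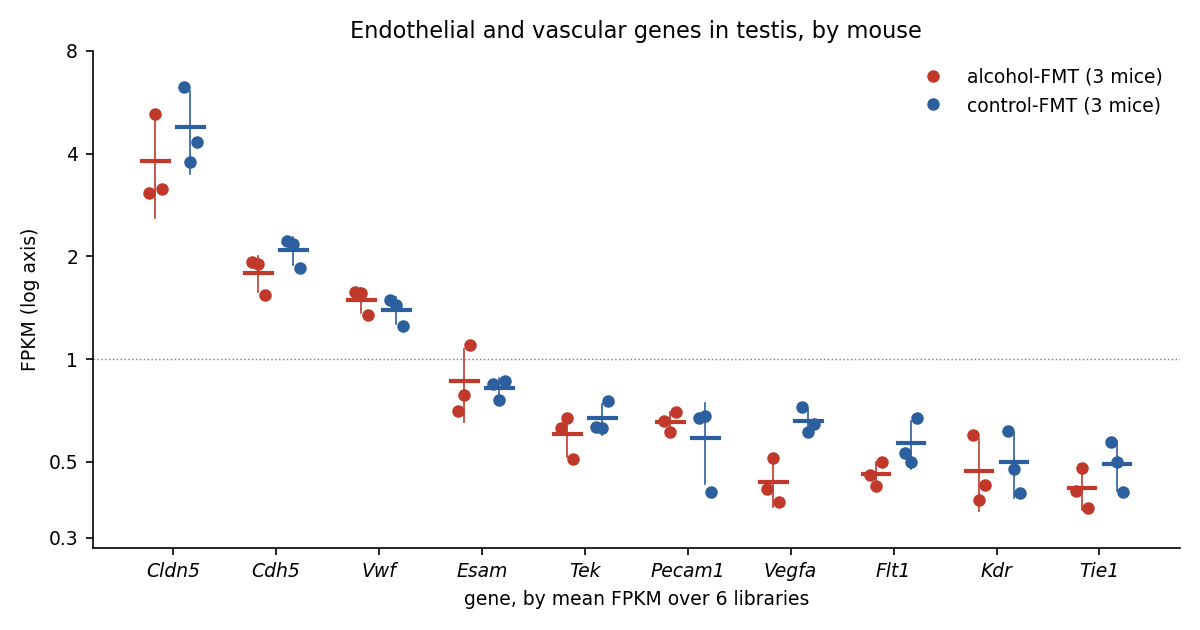
FPKM of the 10 genes on a log axis, ordered by their mean over 6 libraries, with 1 point per mouse, alcohol-FMT in red and control-FMT in blue; wide bars are group means, thin lines are 1 SD and the dotted line is 1 FPKM. The 3 alcohol-FMT points of Vegfa lie at 0.381 to 0.514 FPKM, below the control-FMT points at 0.612 to 0.722 FPKM, and the points of 8 genes overlap between groups.

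Markers of cells that secrete VEGF-A were read beside it. Of 8 Sertoli cell genes, 6 were below 0 and 0 passed the unadjusted limma test, with a median log2 fold change of -0.11, and their summed level was 366 to 415 FPKM in alcohol-FMT and 381 to 425 FPKM in control-FMT testes. Of 7 Leydig cell genes, 5 were below 0 and 0 passed, with a median of -0.12 and a summed level of 318 to 444 FPKM in alcohol-FMT and 393 to 507 FPKM in control-FMT testes. Both summed levels overlapped between groups, and 47.5% of all 15206 genes tested were below 0. Limma-voom over every gene with a fragment called 1 of the 8 Sertoli genes lower at an unadjusted p, Fshr with a fold of 0.638. It also called 2 of the 7 Leydig genes lower, Insl3 with a fold of 0.733 and Hsd3b6 with a fold of 0.670, and 0 of either list higher. That fit called 3.17% of all 35799 genes lower and 3.11% higher. Insl3 had 151, 281 and 233 FPKM in alcohol-FMT mice 18, 24 and 31, against 339, 265 and 284 FPKM in control-FMT testes. Hsd3b6 had 28.0, 37.6 and 14.4 FPKM in the same alcohol-FMT mice, against 41.3, 34.3 and 35.5 FPKM in control-FMT testes. Both genes overlapped between groups, and the Leydig genes above 0 by limma were Star and Cyp17a1. None of the Sertoli and Leydig markers was at 0, and their part in the level of Vegfa was not tested. In whole tissue, fewer cells of a type and less RNA per cell cannot be told apart.

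The VEGF receptors Kdr and Flt1 stood near 0.5 FPKM with no difference past the test. Flt1 was at 0.457, 0.425 and 0.4998 FPKM in alcohol-FMT mice 18, 24 and 31, against 0.532, 0.5002 and 0.673 FPKM in control-FMT mice 16, 19 and 21. The groups did not overlap, but only a difference in the fourth decimal place kept alcohol-FMT mouse 31 below control-FMT mouse 19, and control-FMT mouse 21 alone stood clearly above the rest. Its means were 0.461 ± 0.0374 and 0.568 ± 0.0920 FPKM in alcohol-FMT and control-FMT testes (SD, n = 3 each), and the limma log2 fold change was -0.10 (95% interval -0.29 to 0.085, adjusted p = 0.853). Reads of the full-length receptor and of its soluble form were counted together, since the table is by gene and the annotation gives Flt1 6 transcripts.

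Kdr had 0.598, 0.386 and 0.428 FPKM in alcohol-FMT testes and 0.618, 0.476 and 0.405 FPKM in control-FMT testes, with 1 high mouse in each group. Its coefficient of variation, 23.8% in alcohol-FMT and 21.7% in control-FMT testes, was above the 11.5% and 11.2% of counting error. The limma-voom fold of Kdr was 0.931, with a 95% interval of 0.672 to 1.29, and the sign of its limma difference turned when alcohol-FMT mouse 24 or control-FMT mouse 16 was left out.

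Angiopoietin receptors showed no difference past the test either. Tek was at 0.629, 0.672 and 0.508 FPKM in alcohol-FMT and 0.633, 0.628 and 0.751 FPKM in control-FMT testes. Tie1 had 0.410, 0.480 and 0.365 FPKM in alcohol-FMT and 0.573, 0.4995 and 0.408 FPKM in control-FMT testes. Both were lowest in alcohol-FMT mouse 31, Tek was highest in control-FMT mouse 21 and Tie1 in control-FMT mouse 16. The limma-voom folds were 0.898 (95% interval 0.646 to 1.25) for Tek and 0.851 (95% interval 0.585 to 1.24) for Tie1, and at 33 to 60 fragments per library the intervals were wide.

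Junction genes held the highest and the most variable level of the set. Cldn5, a claudin of endothelial tight junctions, had 3.06, 5.23 and 3.15 FPKM in alcohol-FMT mice 18, 24 and 31, against 6.28, 3.78 and 4.33 FPKM in control-FMT mice 16, 19 and 21. RNA of whole testis does not show which cells made this transcript. Alcohol-FMT mouse 24 lay above control-FMT mice 19 and 21, so the groups overlapped. The means were 3.81 ± 1.23 and 4.80 ± 1.31 FPKM in alcohol-FMT and control-FMT testes (SD, n = 3 each). The coefficients of variation were 32.2% and 27.3%, against 10.1% and 9.12% from counting, and the highest library was 2.05-fold above the lowest. By limma over the 15206 genes with a mean of at least 1 FPKM, the log2 fold change was -0.27 (standard error 0.21, 95% interval -0.78 to 0.23, adjusted p = 0.823). Without alcohol-FMT mouse 24 it was -0.48 and passed the unadjusted limma test (adjusted p = 0.909), so this 1 mouse decides its side of the threshold. Cldn5 has 1 exon and 1 transcript in the annotation, and its 73 to 161 fragments per library fell on 1416 bases.

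Cdh5, the adhesion molecule of endothelial adherens junctions, had 1.92, 1.90 and 1.54 FPKM in alcohol-FMT and 2.22, 2.18 and 1.85 FPKM in control-FMT testes. Of the control-FMT mice, 2 lay above every alcohol-FMT mouse and control-FMT mouse 21 lay below 2 of them. The limma log2 fold change of Cdh5 was -0.15 (standard error 0.099, 95% interval -0.38 to 0.086, adjusted p = 0.798). The antisense gene Gm29682 overlaps Cdh5 and had 0 to 2 fragments per library, 5 in total, and strand use in counting is not given in the sources used here.

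Pecam1 was at 0.657, 0.612 and 0.699 FPKM in alcohol-FMT and 0.674, 0.681 and 0.407 FPKM in control-FMT testes. Except for 1 library, the values lay within 0.612 to 0.699 FPKM and that library, control-FMT mouse 21, stood alone at 43 fragments, against 69 to 80 in the others. Esam, an adhesion molecule of tight junctions that platelets carry too, had 0.703, 0.786 and 1.10 FPKM in alcohol-FMT and 0.848, 0.759 and 0.864 FPKM in control-FMT testes, with alcohol-FMT mouse 31 alone above 1 FPKM. The limma-voom folds were 1.14 (95% interval 0.817 to 1.58) for Pecam1 and 1.04 (95% interval 0.715 to 1.50) for Esam. Each took the opposite sign by limma when its single outlying mouse was left out.

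Vwf, the stored haemostatic protein, was evenly measured in both groups. It had 1.57, 1.56 and 1.35 FPKM in alcohol-FMT and 1.49, 1.44 and 1.25 FPKM in control-FMT testes, from 341 to 466 fragments on 16064 bases. The groups overlapped, and the coefficients of variation were 8.45% in alcohol-FMT and 8.89% in control-FMT testes. The limma log2 fold change was 0.058 (standard error 0.090, 95% interval -0.16 to 0.27, adjusted p = 0.915). On the fold scale limma-voom gave 1.07 (95% interval 0.904 to 1.26), the narrowest interval of the 10 genes. At the same unadjusted threshold, 4.93% of the 15206 genes of that fit were higher and 2.34% lower, none passed after adjustment (0%), and 0 of its 3 vessel genes Cldn5, Cdh5 and Vwf passed. Groups that did not overlap made up 7.76% (alcohol-FMT higher) and 5.33% (alcohol-FMT lower) of these genes and 0 of the 3.

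**Figure D2:**
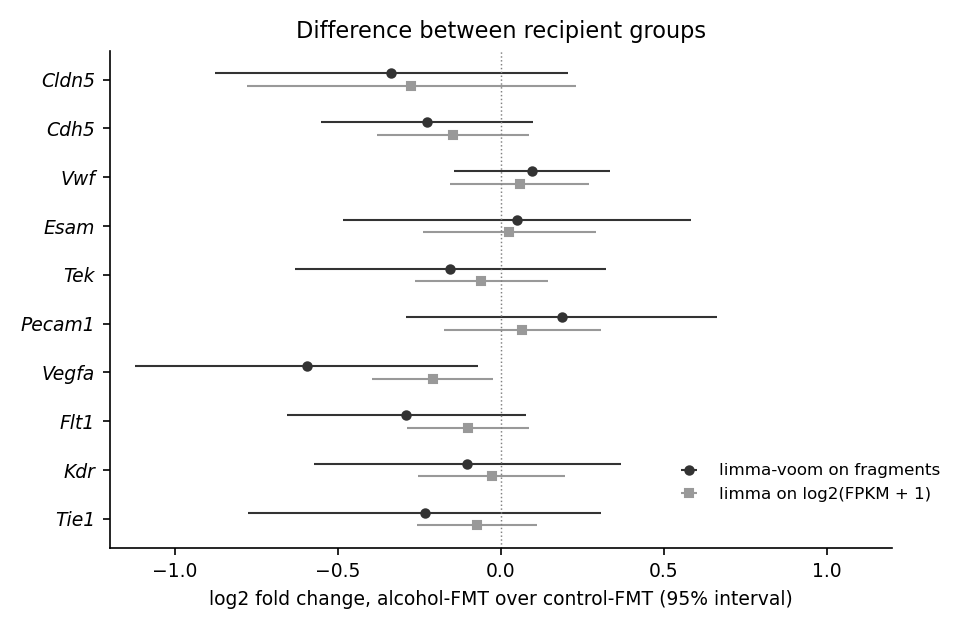
Log2 fold change of alcohol-FMT over control-FMT for the 10 genes, with 95% intervals, from limma-voom on fragments (black circles) and limma on log2(FPKM + 1) (grey squares), ordered by level. Only the intervals of Vegfa exclude 0, and the grey values lie nearer to 0 than the black ones for genes of low FPKM.

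The order of the levels per length, over all 6 libraries, was Cldn5 (mean 4.31 FPKM), Cdh5 (1.94), Vwf (1.44), Esam (0.844), Tek (0.637), Pecam1 (0.622), Vegfa (0.549), Flt1 (0.514), Kdr (0.485) and Tie1 (0.456 FPKM). Among neighbours in this order the ranges were apart for Cldn5 and Cdh5 and for Vwf and Esam, and overlapped for every other neighbouring pair.

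Some libraries held the extreme value of several of the genes. How many of all genes had their extreme in these libraries was not counted, so a shift of a whole library was not tested. Control-FMT mouse 16 was the highest library for 5 of the 10 genes and alcohol-FMT mouse 31 the lowest for 4, with median deviations from the gene's mean log2 FPKM of 0.17 and -0.23. Summed over the 9 genes other than Vegfa, the level was 10.0, 12.1 and 9.64 FPKM in alcohol-FMT testes and 13.9, 10.9 and 10.9 FPKM in control-FMT testes, and these sums overlapped. Cldn5 made up 30.6 to 43.4% of the sum in alcohol-FMT and 34.6 to 45.3% in control-FMT testes. Without it the remaining 8 genes summed to 6.94, 6.82 and 6.49 FPKM in alcohol-FMT and 7.58, 7.16 and 6.61 FPKM in control-FMT testes, which also overlapped.

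**Figure D3:**
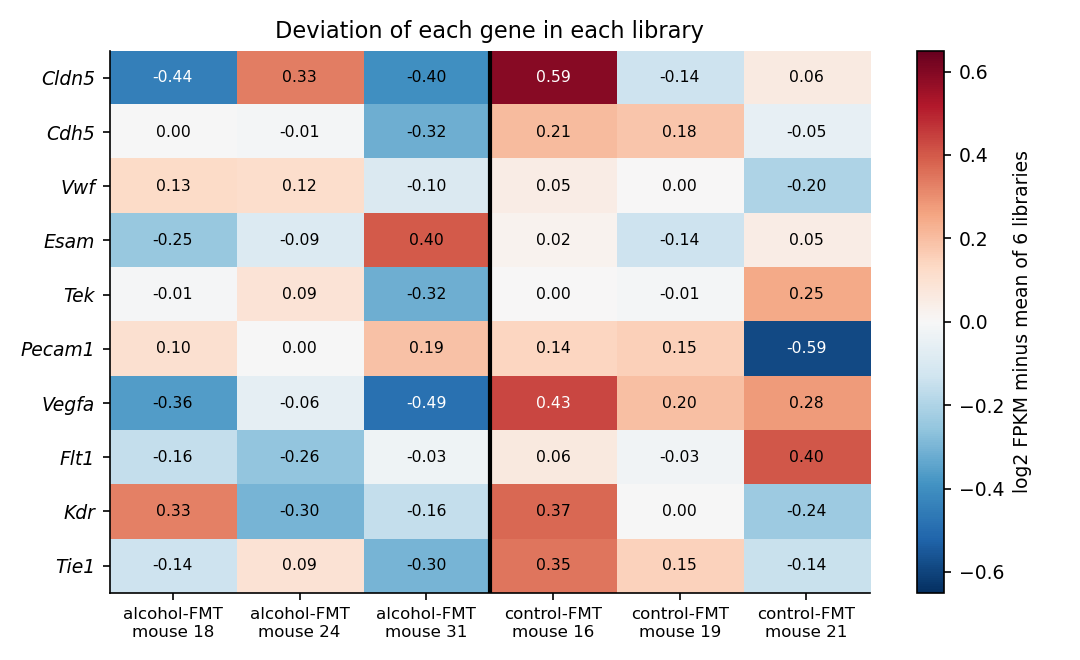
Deviation of log2 FPKM from the mean of the 6 libraries for each gene (rows) and mouse (columns, alcohol-FMT left of the line and control-FMT right of it), red above and blue below the mean. Vegfa is below its mean in all 3 alcohol-FMT mice and above it in all 3 control-FMT mice, Cldn5 swings within both groups, and the lowest value of Pecam1 is in control-FMT mouse 21.

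Ratios of genes within a library do not depend on its total. Vwf over Cdh5 was 0.818, 0.818 and 0.873 in alcohol-FMT testes and 0.669, 0.662 and 0.676 in control-FMT testes, with no overlap and a difference in means of 1.25-fold. The exact two-sided permutation test gave p = 0.1, the smallest possible, and 0.5 after Benjamini-Hochberg adjustment over the 5 ratios compared. These 5 ratios and their tests were not planned, and how often other gene pairs separate the groups was not counted. The ligand Vegfa over its receptors Kdr and Flt1 together was 0.394, 0.633 and 0.411 in alcohol-FMT and 0.628, 0.627 and 0.600 in control-FMT testes, where alcohol-FMT mouse 24 was the highest of all (exact permutation p = 0.4, adjusted p = 0.875). Set against the sum of the 9 other genes, Vegfa was at 0.0415, 0.0426 and 0.0395 in alcohol-FMT and 0.0521, 0.0559 and 0.0591 in control-FMT testes, with no overlap and an alcohol-FMT mean 0.740 of the control-FMT mean, given without a test. Flt1 over Kdr, Tek over Tie1 and Cldn5 over Cdh5 overlapped between groups, with exact permutation p from 0.7 to 1.

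**Figure D4:**
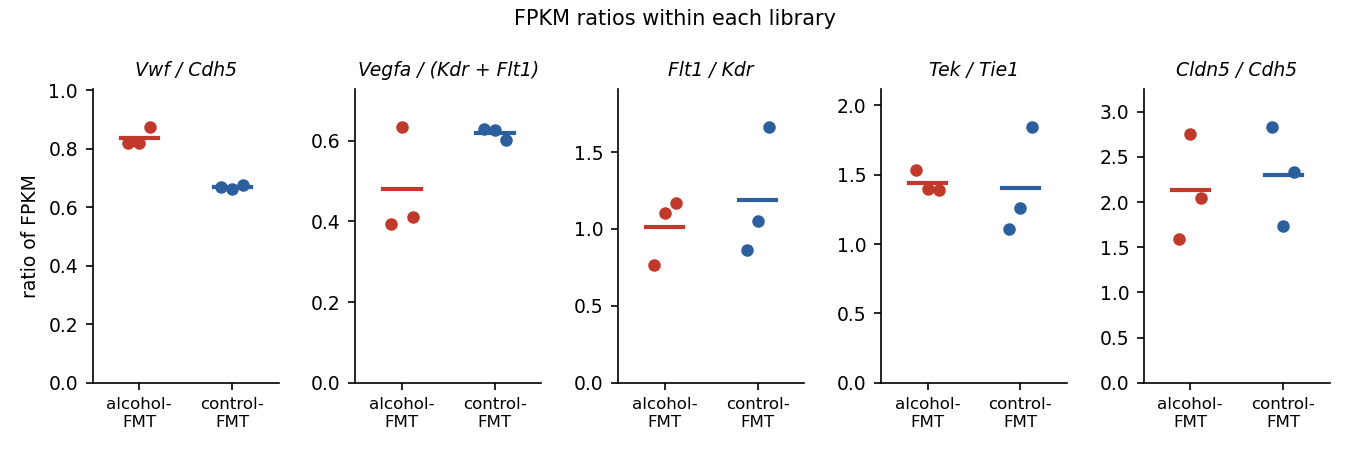
Ratios of FPKM within each library for 5 pairs of genes, alcohol-FMT (red, left) and control-FMT (blue, right), 1 point per mouse with a bar at the group mean and each axis starting at 0. The Vwf to Cdh5 ratio lies at 0.818 to 0.873 in alcohol-FMT and 0.662 to 0.676 in control-FMT testes, and the other 4 ratios overlap.

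Genes that work beside these 10 were read from 9 lists, 130 genes in all, of the same fits. Calls are at an unadjusted limma p up to 0.05 unless limma-voom is named. Genes named at a mean of at least 1 FPKM are up to 4 of smallest limma p per list. That choice favours groups without overlap, which 5.33% (alcohol-FMT lower) and 7.76% (alcohol-FMT higher) of the 15206 genes tested had. Limma-voom calls are from its fit of every gene with a fragment unless another set is named. That limma-voom fit called 3.11% of all 35799 genes higher and 3.17% lower. Limma called 4.93% of the 15206 genes tested higher and 2.34% lower. Of the 25 other endothelial genes, 6 had a mean of at least 1 FPKM and 0 of these passed in either direction. Cd34, a surface sialomucin of capillary endothelium and of progenitor cells, was at 1.03, 1.31 and 1.26 FPKM in alcohol-FMT and 1.77, 1.42 and 1.42 FPKM in control-FMT testes, with no overlap (limma log2 fold change -0.21, adjusted p = 0.715). Nos3, the endothelial nitric oxide synthase that relaxes vessel walls, averaged 1.07 ± 0.425 and 1.28 ± 0.167 FPKM in alcohol-FMT and control-FMT testes (SD, n = 3 each), with alcohol-FMT mouse 18 at 0.588 FPKM. Egfl7, a protein of the vascular matrix, averaged 1.08 ± 0.243 and 0.968 ± 0.123 FPKM, and Sox17, a transcription factor of arterial endothelium, 3.01 ± 0.401 and 2.98 ± 0.0208 FPKM in the same groups and order. When genes under 1 FPKM were fitted too, 2 of the 25 were higher and 0 lower, against 3.09% and 2.54% of all 35799 genes. Both, Mmrn1 and Gpihbp1, were chosen here after their values were seen. The filter of 10 fragments in 3 libraries kept 21 of the 25 genes and removed both, so its count of 0 higher does not retest them. Limma-voom called 2 higher, again Mmrn1 and Gpihbp1, and also 1 lower, Cd34 with a fold of 0.780. Mmrn1 (multimerin 1) had 19, 15 and 8 fragments in alcohol-FMT and 4, 3 and 0 in control-FMT testes. Gpihbp1, the capillary anchor of lipoprotein lipase, had 2, 2 and 5 fragments in alcohol-FMT and 0 in every control-FMT library. Gpihbp1 thus entered the fit through alcohol-FMT libraries alone.

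Further ligands and receptors of the VEGF and angiopoietin families, 16 genes with 5 at a mean of at least 1 FPKM, gave 0 higher and 0 lower by limma, and limma-voom called 1 lower, Plxnd1 with a fold of 0.767. Plxnd1, a semaphorin receptor of vessels, had 1.88, 1.95 and 1.42 FPKM in alcohol-FMT and 2.50, 2.03 and 2.25 FPKM in control-FMT testes without overlap (limma log2 fold change -0.25, adjusted p = 0.689). Pgf, the placental growth factor that binds VEGFR1 but not VEGFR2, averaged 1.14 ± 0.0907 FPKM in alcohol-FMT and 0.955 ± 0.0545 FPKM in control-FMT testes (SD, n = 3 each), also without overlap and in the other direction (limma adjusted p = 0.796). Flt4, the receptor of VEGF-C, averaged 1.91 ± 0.0493 and 1.77 ± 0.249 FPKM, and Apln, the ligand apelin, 1.82 ± 0.808 and 1.50 ± 0.562 FPKM in alcohol-FMT and control-FMT testes (SD, n = 3 each).

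Hypoxia response genes, the class in which Vegfa itself is a classic target, gave 0 higher and 0 lower among 13 tested of 16. By limma-voom 2 were higher and 0 lower, Ndrg1 with a fold of 1.27 and Ldha with a fold of 1.10. Limma-voom over the 15206 genes with a mean of at least 1 FPKM did not call Ldha (unadjusted p = 0.0645). The median log2 fold change of the tested genes was 0.028, with 4 of 13 below 0, against 47.5% of all 15206 genes tested. Ndrg1, a stress-responsive gene, averaged 1.91 ± 0.188 and 1.51 ± 0.167 FPKM, and Ldha, a lactate dehydrogenase subunit, 314 ± 15.3 and 284 ± 8.41 FPKM in alcohol-FMT and control-FMT testes (SD, n = 3 each). Neither pair of groups overlapped, and limma gave an adjusted p = 0.689 for Ndrg1 and an adjusted p = 0.702 for Ldha. Vhl, which marks the hypoxia factors for destruction, averaged 38.8 ± 3.19 and 33.9 ± 2.80 FPKM, and Bnip3, a mitophagy receptor, 3.90 ± 0.593 and 4.62 ± 0.310 FPKM in the same order, with overlap.

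Notch genes of vessels gave 0 higher and 0 lower among 7 tested of 12. Their named members, the ligands Jag1 and Jag2 and the target genes Hes1 and Hey1, averaged 6.79 ± 0.651, 2.20 ± 0.111, 2.58 ± 0.528 and 2.41 ± 0.332 FPKM in alcohol-FMT testes and 6.24 ± 0.150, 2.37 ± 0.275, 2.85 ± 0.194 and 2.26 ± 0.107 FPKM in control-FMT testes (SD, n = 3 each), all with overlap. The target gene Heyl was higher in the limma fit of all genes, at 0.295 ± 0.0525 and 0.166 ± 0.0555 FPKM (SD, n = 3 each), and was chosen after its values were seen. In that fit 3.09% of all 35799 genes were higher.

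Vcam1, an adhesion molecule that inflamed endothelium shows to leukocytes, was lower in alcohol-FMT testes by the unadjusted test. It had 5.52, 6.48 and 5.50 FPKM in alcohol-FMT and 7.11, 7.52 and 6.83 FPKM in control-FMT testes without overlap. By limma it differed by -0.26 on the log2 scale (standard error 0.085, adjusted p = 0.637), and Vcam1 is made by stromal cells as well. Sele, the leukocyte-binding E-selectin of endothelium, averaged 1.39 ± 0.281 and 1.53 ± 0.107 FPKM in alcohol-FMT and control-FMT testes (SD, n = 3 each). These are the 2 tested genes of 7 endothelial activation genes, of which 0 were higher and 1 lower, and Glycam1 had no fragment in any library.

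Cells that wrap vessels gave the other call on the lower side. Among 14 pericyte and vascular smooth muscle genes, 6 were tested, with 0 higher and 1 lower, and the lower gene was Rgs5, a regulator of G-protein signalling typical of pericytes. Rgs5 had 1.33, 1.19 and 0.838 FPKM in alcohol-FMT and 1.57, 1.85 and 1.75 FPKM in control-FMT testes without overlap. Rgs5 differed by -0.37 on the log2 scale (standard error 0.11, limma adjusted p = 0.616), and the limma-voom fold was 0.638. In the fit of all genes 2 of the 14 were lower by limma, against 2.54% of all 35799 genes. In that fit 12 of 14 were below 0, with a median of -0.079, against 52.5% of all genes. The further gene lower by limma was Kcnj8, a potassium channel subunit of pericytes, chosen after its values were seen. Kcnj8 was at 0.299 ± 0.0376 and 0.480 ± 0.0917 FPKM in alcohol-FMT and control-FMT testes (SD, n = 3 each). Limma-voom called 3 of the 14 lower, against 3.17% of all 35799 genes, and did not call Kcnj8. The 3 were Rgs5, Cspg4 with a fold of 0.643 and Notch3 with a fold of 0.684, and Cspg4 and Notch3 are named with their values in view. The smooth muscle genes Acta2 (22.0 ± 2.85 and 22.9 ± 1.89 FPKM) and Myh11 (3.59 ± 0.477 and 3.99 ± 0.316 FPKM) and the surface protein Mcam (3.84 ± 0.0705 and 3.70 ± 0.428 FPKM) overlapped between alcohol-FMT and control-FMT testes, and peritubular myoid cells of the tubule wall express Acta2 and Myh11 too.

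Vascular tone, junction and matrix genes gave no call by limma. Of 16 vascular tone genes 5 were tested, with 0 higher and 0 lower. Ace, the angiotensin-converting enzyme, which male germ cells make as a testis form, was at 132 ± 0.889 and 122 ± 3.22 FPKM in alcohol-FMT and control-FMT testes (SD, n = 3 each) without overlap (limma log2 fold change 0.12, adjusted p = 0.705). Ece1, which processes endothelin, averaged 2.93 ± 0.257 and 3.32 ± 0.200 FPKM, Prkg1, a kinase of nitric oxide signalling, 3.34 ± 1.03 and 2.87 ± 0.392 FPKM, and Agtr1a, an angiotensin receptor, 6.47 ± 0.962 and 6.92 ± 1.08 FPKM in the same order. Limma-voom called 1 of the 16 higher, Ace with a fold of 1.09, and 1 lower, Gucy1b1, a subunit of the nitric oxide receptor, with a fold of 0.544 (chosen after its values were seen), and it called none of the junction and matrix genes. Limma-voom over the 15206 genes with a mean of at least 1 FPKM did not call Ace (unadjusted p = 0.0893). Of 14 junction partners 13 were tested, with 0 higher and 0 lower and 10 below 0, against 47.5% of all 15206 genes tested. Ocln (occludin) had 1.26, 1.21 and 1.26 FPKM in alcohol-FMT and 1.60, 1.51 and 1.41 FPKM in control-FMT testes without overlap (limma adjusted p = 0.726), and this protein also belongs to the Sertoli cell barrier. Of 10 vascular basement membrane genes 9 were tested, with 0 higher and 0 lower, 8 below 0 and a median of -0.075. Over all 15206 genes the median was 0.0081 and 47.5% were below 0. Col4a1, a chain of type IV collagen, averaged 2.77 ± 0.0412 and 3.20 ± 0.499 FPKM, Hspg2 (perlecan) 2.07 ± 0.212 and 2.43 ± 0.272 FPKM, and Nid1 (nidogen 1) 4.05 ± 0.726 and 4.70 ± 0.271 FPKM in alcohol-FMT and control-FMT testes (SD, n = 3 each).

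**Figure D5:**
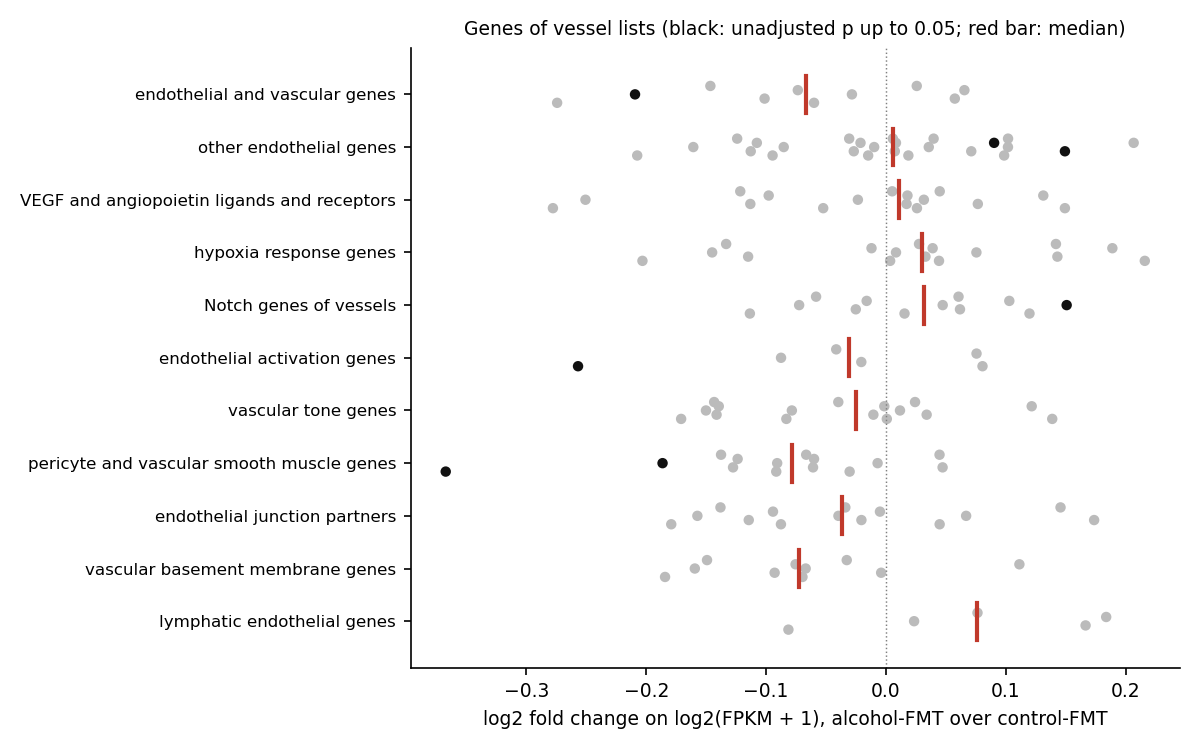
Log2 fold change of alcohol-FMT over control-FMT on log2(FPKM + 1) for each gene (points) of the 10 vessel genes, the related lists and the lymphatic list, with black points at an unadjusted limma p up to 0.05 and a red bar at each list's median. Most points lie within 0.2 of 0, and Vegfa, Vcam1, Rgs5 and Kcnj8 are the black points on the lower side.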

How the data were processed

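Testis RNA of 3 alcohol-FMT and 3 control-FMT mice was sequenced after Illumina TruSeq preparation, and groups came from the sample titles. The deposited table holds FPKM values that the authors made per gene, with lengths and positions of Ensembl on GRCm38. The methods name TopHat2 for mapping, the submitters' notes name HISAT2 2.0.5 with mm10 and mm8, and the sources used here do not settle which was used. The library sizes implied by the deposited FPKM were 0.982 to 1.03 times the fragments in genes, and how this scaling was made was not tested. FPKM times gene length was a whole multiple of 1 step in each library for 100% of values (tolerance 0.01), which gave the fragments. For the 10 genes, the deposited length equalled the merged exon length of the GENCODE annotation.

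Genes with a mean of at least 1 FPKM (15206) were tested with limma 3.58.1 in R 4.3.3 on log2(FPKM + 1) values with a trended variance, no covariate and Benjamini-Hochberg adjustment over all genes tested. A count test had been planned only for a table of counts. Genes under 1 FPKM were read from the same fit of the 35799 genes with a fragment. Limma-voom was run over both sets of genes, and its folds of Cldn5, Cdh5 and Vwf came from the 15206 genes. Alternatives were limma-voom on the fragments, library totals, no filter, 10 fragments in 3 libraries, a pseudocount of 0.1, removal of the gene length trend, protein-coding genes alone and leaving out each library, and the fits were tested on simulated data. Limma-voom without each library was added after seeing the data. Intervals are at 95%, and fragment counts cover counting error only. Named genes were all 10 members, for each list up to 4 tested genes of smallest p and any overlapping gene. The members and lists were chosen with earlier results of these data known. P-values set a group difference against the spread between these mice, which limma moderates across genes. Donor and cage of each recipient are not given in the sources used here, so their part in that spread was not tested. Python 3.11.15, NumPy 2.4.6, pandas 2.3.3 and SciPy 1.17.1 were used. Protein sequences were not used here.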

Additional observations from a re-analysis of the deposited data

How the results depend on the processing

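Of the 10 genes, 0 were higher under any of 13 alternatives. The number lower, 1 in the main analysis, was 0 with a pseudocount of 0.1 and ranged from 0 to 2 when each library was left out, by limma and by limma-voom (the limma-voom fits were added after seeing the data). It was 0 by limma without alcohol-FMT mouse 18, alcohol-FMT mouse 31 or control-FMT mouse 16, and 2 (Vegfa and Cldn5) without alcohol-FMT mouse 24. Vegfa kept its direction throughout, with log2 fold changes from -0.25 to -0.18 over the 6 limma fits without 1 library and -0.60 to -0.21 over the other 7 alternatives. The median log2 fold change of the 10 genes, -0.067, was -0.19 with limma-voom and -0.16 with a pseudocount of 0.1. Signs turned without a call when 1 library was left out. Kdr ranged from -0.089 to 0.028 by limma and reached 0.027 and 0.063 by limma-voom (without alcohol-FMT mouse 24 and without control-FMT mouse 16). Esam ranged from -0.064 to 0.088 by limma and fell to -0.14 and -0.0080 by limma-voom (without alcohol-FMT mouse 31 and without control-FMT mouse 19). Pecam1 ranged from -0.019 to 0.11 by limma and was -0.049 by limma-voom without control-FMT mouse 21. Over all genes, 1106 were called at an unadjusted limma p up to 0.05, 2016 with no filter and 664 to 2697 without 1 library, and 0 to 2 genes passed the adjusted p. The cause was not tested, apart from no filter, which tests more genes. Of the 25 other endothelial genes, 0 to 3 were higher and 0 to 1 lower over the 13 alternatives. The 0 higher came with the filter of 10 fragments in 3 libraries, which removed Mmrn1 and Gpihbp1. The 33 to 60 fragments of Tek and Tie1 and the 30 to 58 of Vegfa and Esam limit what could be seen. No paired analysis was possible because the groups share no replicate numbers.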

Other observations

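Blood and lymphatic markers were read in the same way. Among 7 red cell genes, 3 were tested, with 0 higher and 1 lower at an unadjusted limma p. Of all 15206 genes tested, 2.34% were lower. Hbb-bs, an adult beta globin whose reads can be shared with its near copies, had 3.32, 4.89 and 7.02 FPKM in alcohol-FMT and 8.63, 7.85 and 7.45 FPKM in control-FMT testes without overlap (limma log2 fold change -0.61, adjusted p = 0.662). The summed red cell level was 13.2 to 21.1 FPKM in alcohol-FMT and 20.6 to 23.4 FPKM in control-FMT testes. Pf4, a platelet chemokine, averaged 1.70 ± 0.0349 and 2.36 ± 0.841 FPKM in alcohol-FMT and control-FMT testes (SD, n = 3 each), with overlap. Prox1, the lymphatic transcription factor, averaged 1.64 ± 0.256 and 1.78 ± 0.0663 FPKM in the same order, and 0 of 2 tested lymphatic genes passed.

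Macrophage genes summed to 28.3 to 30.5 FPKM in alcohol-FMT and 28.2 to 33.3 FPKM in control-FMT testes. Limma called 0 of 6 tested genes. Limma-voom called 1 of 8 lower, Csf1r with a fold of 0.788, against 3.17% of all 35799 genes. Fat genes of low level were higher in the limma fit of all genes, 2 of 5, against 3.09% of all 35799 genes. Both were picked with their values in view: Lep (leptin) had 11, 11 and 9 fragments in alcohol-FMT and 4, 4 and 1 in control-FMT testes, and Cidec, a lipid droplet protein, 17, 18 and 13 against 5, 5 and 11. Epididymis genes summed to 0.961 to 5.65 FPKM in alcohol-FMT, highest in mouse 31, and 1.46 to 1.94 FPKM in control-FMT testes. Limma-voom called 2 of the 7 epididymis genes higher, against 3.11% of all 35799 genes. Adam7 had 0, 1 and 35 and Rnase9 2, 0 and 7 fragments in alcohol-FMT and 0 in every control-FMT library. Both thus entered the fit through alcohol-FMT libraries alone, and nearly all fragments of Adam7 came from mouse 31, so these calls are description only. Of 6 peritubular myoid and 6 meiotic genes tested, 0 were called by limma or by limma-voom. Of 7 spermatid genes, 0 were called by limma and 1 was higher by limma-voom, Prm2 with a fold of 1.16.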
